A study of Mus musculus with 33 samples.

Results

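Axon guidance ligands and receptors were described across cell types of the mouse colon mesenchyme. Their members are the genes whose symbol belongs to the semaphorins, plexins, neuropilins, Slits, Robos, netrins, Unc5 receptors, ephrins or Eph receptors, and 67 of the 31053 genes in the tables met this rule. There were 34 ligands and 33 receptors: 20 semaphorins, 9 plexins, 2 neuropilins, 3 Slits, 4 Robos, 3 netrins, 4 Unc5 receptors, 8 ephrins and 14 Eph receptors. A transcript was found in at least 1 cell for 64 members, and Slit1, Epha6 and Epha8 had none. At least 100 transcripts in all were counted for 26 ligands and 24 receptors.

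Axon guidance genes are named for steering growing nerve fibres, and the same proteins also pattern vessels, lymphatics and stroma. Secreted class 3 semaphorins bind neuropilins that signal through plexins, most other semaphorins bind plexins directly, Slits bind Robo receptors, netrins bind Dcc, neogenin and Unc5 receptors, and membrane-bound ephrins bind Eph receptors on neighbouring cells, with signals in both cells. In gut tissue, endothelium, enteric glia and fibroblasts are all known sources or targets of such cues.

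The series holds 33 samples, of which the 3 droplet single-cell libraries of the colon are used here. Transcripts were counted by their unique molecular identifiers (UMIs), random tags that mark copies of one molecule. The GFP-low group (2 replicates) held unstained cells of adult PdgfraH2BeGFP mice with weak nuclear GFP, a reporter driven by the locus of the PDGF receptor Pdgfra. The whole mesenchyme group (1 library, genotype control, adult mice) lacked surface EpCAM (epithelium) and CD45 (leukocytes) by its sort. The protocol text of that library names the PdgfraH2BeGFP strain too, so the labels leave unclear whether its mice carried the reporter. Both sexes were used, no treatment was given and the outer muscle layer had been removed. The labels do not tie the GFP-low replicates to separate animals, so a p-value here speaks of the spread between these libraries, which may be technical. The GFP-low replicates held 39190629 and 52313765 UMIs and the whole mesenchyme library 41863444, with 4834, 6025 and 6793 cells in that order and medians of 6446.5, 7025 and 4429 UMIs per cell. Between 6 and 11 cell barcodes were shared by each pair of libraries.

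Each cell was given the type whose marker panel it scored highest for, when that score cleared a minimum and a margin over the next panel, and no member is in a panel. Names therefore mean resemblance. Cd81-fibroblast-like cells, marked by Cd81, Cd34, C3, C7 and Scara5, counted 3329 and 4207 in the GFP-low replicates and 539 in whole mesenchyme, and Adamdec1-fibroblast-like cells counted 1079, 1198 and 3237. The whole mesenchyme library also held 609 telocyte-like cells (subepithelial cells with the highest Pdgfra), 540 blood endothelium-like, 107 smooth muscle or myofibroblast-like, 54 pericyte-like, 51 glia-like and 48 lymphatic endothelium-like cells. Of all cells, 12.88% stayed without a type (6.62% and 8.81% of the GFP-low replicates and 20.93% of whole mesenchyme), and 10.61% lay within 0.05 of a gate limit. Epithelium, neurons, mast cells, mesothelium, erythroid cells and interstitial cells of Cajal are not described, because their median gated cell held fewer than 2 of the panel's markers.

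The promoters of 5 members are shown, because 3 of them (Slit3, Sema3c and Sema3d) were higher together in Cd81-fibroblast-like cells and the other 2 (Robo4 and Sema3g) stood apart in blood endothelium-like cells. Each is the 300 bases on the plus strand from 250 before to 50 after an annotated start, from RefSeq on GRCm38.p6, with the 50 bases from the start onward in capitals. The windows are chr11:35121206-35121505 for Slit3, chr5:17574566-17574865 for Sema3c, chr5:12382916-12383215 for Sema3d, chr9:37401722-37402021 for Robo4 and chr14:31217623-31217922 for Sema3g.
Slit3: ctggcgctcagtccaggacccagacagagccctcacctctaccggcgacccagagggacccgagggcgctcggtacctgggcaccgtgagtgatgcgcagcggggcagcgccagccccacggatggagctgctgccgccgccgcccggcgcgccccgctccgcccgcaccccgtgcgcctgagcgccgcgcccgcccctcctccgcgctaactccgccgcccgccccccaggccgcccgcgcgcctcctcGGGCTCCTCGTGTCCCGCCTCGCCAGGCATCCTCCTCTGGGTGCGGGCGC
Sema3c: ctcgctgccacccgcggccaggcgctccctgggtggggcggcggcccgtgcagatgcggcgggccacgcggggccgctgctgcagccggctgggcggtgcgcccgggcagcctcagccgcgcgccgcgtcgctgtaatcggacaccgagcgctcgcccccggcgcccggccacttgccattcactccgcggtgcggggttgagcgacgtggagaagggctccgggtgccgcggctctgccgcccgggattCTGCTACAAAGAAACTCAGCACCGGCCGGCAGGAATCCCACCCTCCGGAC
Sema3d: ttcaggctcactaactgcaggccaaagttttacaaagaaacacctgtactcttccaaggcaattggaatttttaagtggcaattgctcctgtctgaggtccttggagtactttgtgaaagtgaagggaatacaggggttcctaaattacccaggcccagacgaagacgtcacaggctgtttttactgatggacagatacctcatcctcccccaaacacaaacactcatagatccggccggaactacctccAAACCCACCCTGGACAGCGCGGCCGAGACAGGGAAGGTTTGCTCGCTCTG
Robo4: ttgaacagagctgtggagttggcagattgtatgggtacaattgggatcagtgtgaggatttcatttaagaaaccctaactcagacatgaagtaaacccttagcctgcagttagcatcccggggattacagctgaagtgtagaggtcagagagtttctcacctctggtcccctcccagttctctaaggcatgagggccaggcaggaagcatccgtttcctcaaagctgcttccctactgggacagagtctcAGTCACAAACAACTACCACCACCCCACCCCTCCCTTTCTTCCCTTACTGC
Sema3g: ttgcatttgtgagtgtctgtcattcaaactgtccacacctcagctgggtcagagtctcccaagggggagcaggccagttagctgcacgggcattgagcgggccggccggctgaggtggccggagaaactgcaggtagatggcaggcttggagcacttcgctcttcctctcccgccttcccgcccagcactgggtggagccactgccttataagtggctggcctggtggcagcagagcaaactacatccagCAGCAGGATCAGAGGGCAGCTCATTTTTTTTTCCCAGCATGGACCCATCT
The Slit3 window held 41 CG pairs and the Sema3c window 42, against 8 each in Sema3d and Sema3g and 2 in Robo4, and the median of the 32851 promoters in the table was 7. The letters ACAAAG, the core motif of SOX factors, were searched on both strands and were found in the windows of Sema3c and Sema3d, in those of 10 of the 58 members with a promoter in the table, and in 18.7% of all promoters. The letters GGAAGT, a core motif of ETS factors, were found in none of the 5 windows, in those of 13 members and in 23.8% of all promoters. A match describes the letters in the window and is not a binding site.

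Across the 8 cell types of the whole mesenchyme library, guidance genes had distinct places. Among the members high in vessels were Robo4, Nrp1, Sema7a and Sema3g in blood endothelium and Sema3d, Nrp2, Sema6a and Ntn1 in lymphatic endothelium. Slit3 and Slit2 (21 UMIs) were highest in Cd81-fibroblast-like cells, Robo1 and Robo2 in Adamdec1-fibroblast-like cells, and Sema3b, Ephb2 and Sema3e in glia. A member was said to stand apart when its highest type had at least 10 UMIs and at least 4 times the level of the median type. That held for 35 of the 45 members with at least 10 UMIs in their highest type, and it held for 24.3% of the 8294 genes with as many UMIs. With 1 library there is no replicate check and no test; levels are CPM, a gene's UMIs scaled to the total of its type, and the 95% exact Poisson intervals and the floors of 3 counts cover counting error only.

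**Figure D1:**
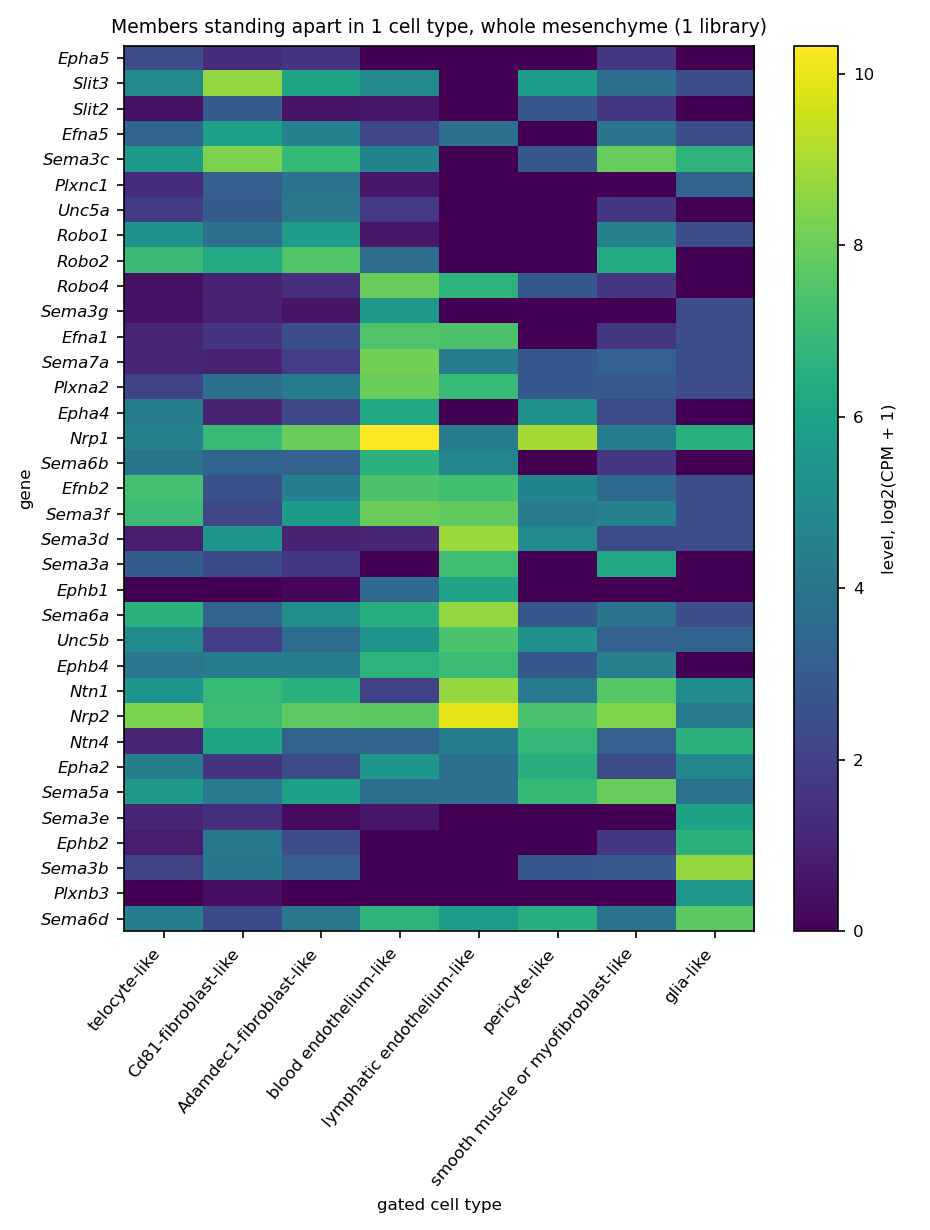
Level of the 35 members that stood apart in 1 of 8 gated cell types of the whole mesenchyme library, as log2(CPM + 1) by colour, with genes down and cell types across. Bright cells form blocks, such as 10 members in blood endothelium-like and 8 in lymphatic endothelium-like cells, beside 493 and 241 of the 2019 genes that stood apart. Slit3 is bright in Cd81-fibroblast-like cells where Robo1 and Robo2 are dimmer than in Adamdec1-fibroblast-like cells.

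Blood endothelium-like cells were the place of 10 of these 35 members, beside 493 of the 2019 genes that stood apart. Robo4, the Robo receptor known from endothelium, had 251 CPM there (228 to 277, 423 UMIs), which was 133 times the level of the median type, and no UMI in glia-like cells, which allows up to 13.5 CPM. Nrp1, the co-receptor for class 3 semaphorins and VEGF-A, had 1288 CPM (1234 to 1343), against 494 CPM in pericyte-like cells, 125 and 249 CPM in Cd81- and Adamdec1-fibroblast-like cells and 22.5 CPM in telocyte-like cells. Its level in near-empty droplets of that library, a measure of free RNA, was 178 CPM. Robo4 thus lay far above every type outside endothelium. Nrp1 of Cd81-fibroblast-like cells lay below the free RNA level of this library, and that of Adamdec1-fibroblast-like cells above it. In the GFP-low replicates Nrp1 had 162 and 106 CPM in Cd81- and 273 and 213 CPM in Adamdec1-fibroblast-like cells. Near-empty droplets of those replicates had 83.7 and 62.0 CPM.

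Sema7a, a membrane-anchored semaphorin that binds Plxnc1 and integrins, had 281 CPM in blood endothelium-like cells (256 to 308). Efna1, an ephrin that binds EphA receptors, had 177 CPM (158 to 198), and Plxna2, a plexin for class 3 and class 6 semaphorins, had 248 CPM (225 to 273). These levels were between 25.3 and 54.4 times that of the median type. Lymphatic endothelium-like cells shared Efna1, at 173 CPM, and Plxna2, at 128 CPM, while their Sema7a level was 19.2 CPM, no higher than the 21.2 CPM of near-empty droplets. Epha4 (71.3 CPM) and Sema6b (99.8 CPM) also stood apart in blood endothelium, at 17.7 and 11.3 times the median type.

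Efnb2, the transmembrane ephrin that marks arteries in the embryo, and Sema3f, a secreted semaphorin that acts through Nrp2, were high in 3 types rather than 1. Efnb2 had 172 CPM in blood endothelium-like, 148 CPM in lymphatic endothelium-like and 150 CPM in telocyte-like cells, against 4.97 CPM in Cd81- and 20.8 CPM in Adamdec1-fibroblast-like cells. Sema3f had 254, 225 and 133 CPM in the same 3 types and 3.64 and 48.8 CPM in Cd81- and Adamdec1-fibroblast-like cells. In near-empty droplets Efnb2 stood at 49.5 CPM and Sema3f at 70.7 CPM. The Cd81- and the Adamdec1-fibroblast-like level of each were thus both below the free RNA level of this library.

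Within blood endothelium, 104 arterial-like, 299 capillary-like and 32 venous-like cells could be told apart by markers. Sema3g, a secreted semaphorin, had 163 CPM in arterial-like cells (120 to 215, 49 UMIs), 13.7 CPM in capillary-like cells (7.31 to 23.5) and 16.8 CPM in venous-like cells (2.03 to 60.6, 2 UMIs), so that the arterial interval lay apart from both others. Efnb2 had 289 CPM in arterial-like cells (231 to 356), 144 CPM in capillary-like cells (121 to 170) and 92.3 CPM in venous-like cells (46.1 to 165). Its receptor Ephb4, known from embryonic veins, had 113, 102 and 109 CPM in arterial-, capillary- and venous-like cells, with intervals that overlapped throughout.

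Nrp1 was highest in capillary-like cells, with 1566 CPM (1487 to 1647), against 952 CPM in arterial-like cells (845 to 1069) and 310 CPM in venous-like cells (219 to 428), and the 3 intervals did not overlap. Sema7a had 302 CPM in arterial-like, 316 CPM in capillary-like and 42.0 CPM in venous-like cells (13.6 to 97.9, 5 UMIs). The venous-like values rest on few UMIs, and of 5 counts of Sema7a each 1 moves the level by a visible step.

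**Figure D2:**
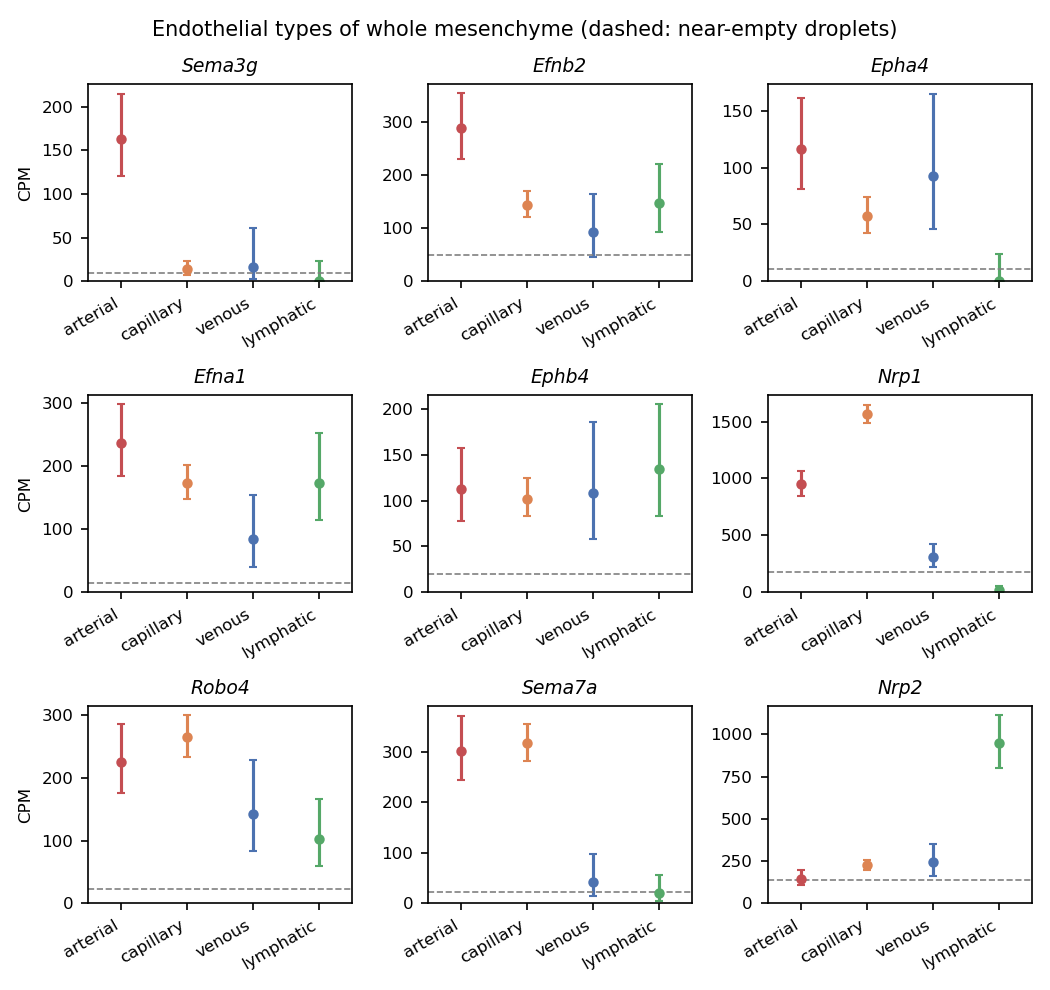
Levels in CPM of 9 members in arterial-, capillary-, venous- and lymphatic endothelium-like cells of whole mesenchyme (points), with exact 95% Poisson intervals (bars) and the level in near-empty droplets (dashed line). Sema3g is high in arterial-like cells, at 163 CPM, Nrp1 in capillary-like cells, at 1566 CPM, and Nrp2 in lymphatic endothelium-like cells, at 949 CPM, and Ephb4 is level among the blood types.

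Lymphatic endothelium-like cells held 8 members that stood apart, beside 241 of the 2019 genes that did. Of the 8 members, 4 belong to the semaphorin pathway. Sema3d, a secreted class 3 semaphorin, had 436 CPM (339 to 553, 68 UMIs), against 43.7 CPM in Cd81-fibroblast-like cells, and Sema6a, a transmembrane ligand of Plxna2 and Plxna4, had 404 CPM (311 to 517). Nrp2, the neuropilin that binds VEGF-C and Sema3f, had 949 CPM (803 to 1115), against 210 CPM in blood endothelium-like cells, and Sema3a had 141 CPM (88.4 to 214). Nrp1 was at 19.2 CPM, on 3 UMIs, in the same cells, so the 2 neuropilins ran opposite ways between lymphatic and blood endothelium.

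The netrin axis was also present there. Ntn1, a secreted netrin, had 411 CPM (316 to 524) in lymphatic endothelium-like cells and 3.0 CPM in blood endothelium-like cells, and its receptor Unc5b had 167 CPM (109 to 244) and 39.2 CPM. Ephb4 (135 CPM) and Ephb1 (64.2 CPM, 10 UMIs) completed the 8. Ephb1 was at 0 in the median type, so its level was at least 23.0 times the floor of the median type. Floors were higher in glia- and pericyte-like cells, at 13.5 and 18.3 CPM, and neither held an Ephb1 UMI. These cells numbered 48, and the intervals are wide for that reason.

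Glia-like cells held 5 members that stood apart, beside 326 of the 2019 genes that did. Sema3b, a secreted class 3 semaphorin, had 409 CPM (329 to 502, 91 UMIs), against 15.2 CPM in Cd81-fibroblast-like cells, and 49.0% of glia-like cells held a Sema3b UMI after each cell was thinned to 1000 UMIs (80.4% unthinned), against 0 of 540 blood endothelium-like cells. Sema6d, a transmembrane semaphorin, had 211 CPM (155 to 281), and Ephb2, a receptor of ephrin-Bs, had 98.9 CPM (62.0 to 150). Sema3e, the semaphorin that binds Plxnd1 without a neuropilin, had 62.9 CPM on 14 UMIs. Plxnb3 had 45.0 CPM (21.6 to 82.7, 10 UMIs), at least 16.1 times the floor of the median type. The floor in pericyte-like cells, which held no Plxnb3 UMI, was higher, at 18.3 CPM. Nrp2 was at 18.0 CPM in glia, the lowest of the 8 types.

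Mural and subepithelial cells held fewer members apart. Pericyte-, smooth muscle or myofibroblast- and telocyte-like cells held 2, 1 and 1, beside 172, 200 and 220 of the 2019 genes that stood apart. Sema5a, a transmembrane semaphorin, had 241 CPM in smooth muscle or myofibroblast-like cells (199 to 290), and the same cells had 333 CPM of Nrp2, 243 CPM of Sema3c and 194 CPM of Ntn1. Ntn4, a secreted laminin-related netrin, had 116 CPM in pericyte-like cells (69.7 to 181, 19 UMIs), and Epha2 had 91.4 CPM (51.2 to 151, 15 UMIs). Glia-like cells had 98.9 CPM of Ntn4 (62.0 to 150, 22 UMIs), so its pericyte-like and glia-like intervals overlapped. Cd81-fibroblast-like cells of the GFP-low replicates had 103 and 67.7 CPM of Ntn4. In telocyte-like cells only the receptor Epha5 stood apart, at 4.42 CPM on 12 UMIs. That level is below the floors of 13.5 and 18.3 CPM in glia- and pericyte-like cells, which held no Epha5 UMI. A higher level in those types is therefore not excluded. In Adamdec1-fibroblast-like cells of the GFP-low replicates Epha5 had 4.18 and 4.64 CPM. Telocyte-like cells had 313 CPM of Nrp2 and 130 CPM of Robo2.

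Cd81- and Adamdec1-fibroblast-like cells held 4 members each that stood apart: Slit3, Slit2, Efna5 and Sema3c in the first, and Plxnc1, Unc5a, Robo1 and Robo2 in the second. Of the 2019 genes that stood apart, 230 did so in Cd81- and 137 in Adamdec1-fibroblast-like cells. Slit2 had 6.95 CPM in Cd81-fibroblast-like cells on 21 UMIs, beside 6.09 CPM in pericyte-like cells on 1 UMI (0.154 to 33.95). It was at 0 in glia-like cells, which allows up to 13.5 CPM, so this library alone does not settle its highest type. Slit3, a secreted Robo ligand, had 404 CPM in Cd81-fibroblast-like cells (382 to 428, 1221 UMIs), 63.7 CPM in Adamdec1-fibroblast-like cells, 29.5 CPM in telocyte-like cells and 0 in lymphatic endothelium-like cells, which allows up to 19.2 CPM. Robo2 had 79.5 CPM in Cd81-fibroblast-like cells, 184 CPM in Adamdec1-fibroblast-like cells (178 to 191) and 130 CPM in telocyte-like cells, beside 83.1 CPM in near-empty droplets, 11.9 CPM in blood endothelium-like cells and 0 in glia-like cells. Robo1 had 13.2 CPM in Cd81-fibroblast-like cells, 53.7 CPM in Adamdec1-fibroblast-like cells (50.2 to 57.3) and 0.594 CPM in blood endothelium-like cells. The share of cells with a Slit3 UMI, after thinning to 1000 UMIs, was 37.3% in Cd81-fibroblast-like and 6.67% in Adamdec1-fibroblast-like cells (82.9% and 24.7% unthinned), at median depths of 5969 and 5542 UMIs. In blood endothelium-like cells, which had a median depth of 2977 UMIs, it was 2.04% (7.78% unthinned), and every cell had enough UMIs to be thinned.

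Both fibroblast types occurred in all 3 libraries, so their difference could be tested, with UMIs summed per library and type and the library as a block (edgeR quasi-likelihood test, n = 3 libraries each, adjusted over 12357 genes). Both Slits tested, both netrins tested and, of the class 3 semaphorins tested, Sema3a, Sema3b, Sema3c, Sema3d and Sema3e were higher in Cd81-fibroblast-like than in Adamdec1-fibroblast-like cells, while Sema3f was lower. Both Robos tested, both Unc5 receptors tested, both neuropilins and 4 of 7 plexins tested were lower. Of the 25 ligands tested 11 were higher and 9 lower, and of the 21 receptors tested 2 were higher and 13 lower.

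In all, 46 members passed the filter on low counts, of which 13 were higher, 22 were lower and 11 did not pass the test at an adjusted p under 0.05. Over all genes tested, 29.0% passed, 14.3% higher and 14.7% lower. The median log2 difference of the tested members was -0.54 and their median absolute difference 1.24, beside 0.00 and 0.24 over all genes tested. Of the 35 members that passed, 24 passed under every alternative that gave them a value and 11 did not under at least 1. The 21 members that did not enter the test, Robo4, Sema3g, Epha2 and Slit1 among them, did not pass the filter on low counts.

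**Figure D3:**
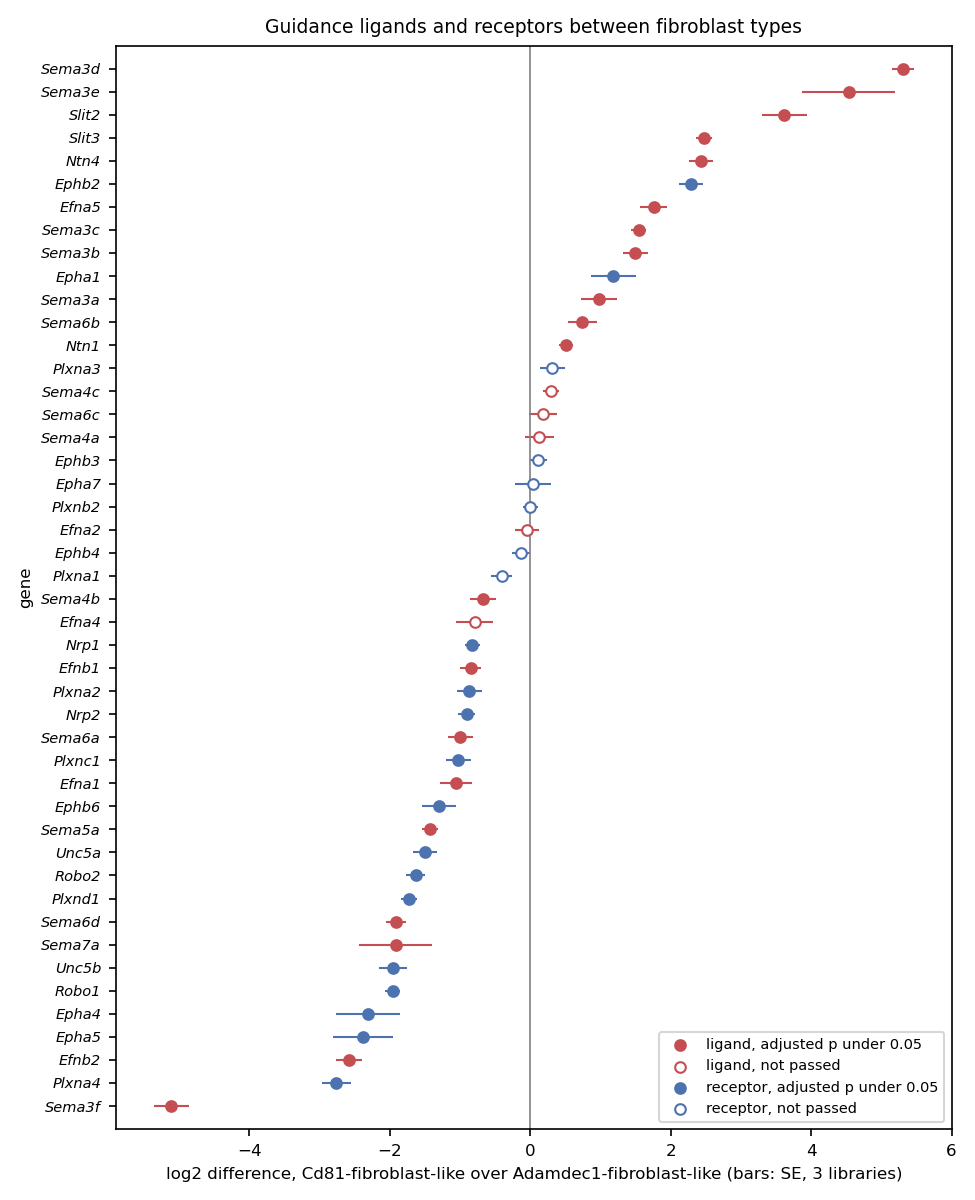
Log2 difference of 46 members, Cd81-fibroblast-like over Adamdec1-fibroblast-like cells (points, with the standard error as bars; red ligands, blue receptors; filled where the adjusted p was under 0.05). Sema3d is highest, at 5.30, and Sema3f lowest, at -5.11, and 11 of the 13 members higher in Cd81-fibroblast-like cells are ligands.

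Slit3 had 572, 529 and 411 normalised CPM in Cd81-fibroblast-like cells of GFP-low replicate 1, GFP-low replicate 2 and whole mesenchyme, against 104, 109 and 64.7 in Adamdec1-fibroblast-like cells of the same libraries. Slit2 had 4.73, 4.40 and 7.07, against 0.496, 0.265 and 0.540. Both Slits were higher in the Cd81-fibroblast-like cells of every library with no overlap, by 2.47 (SE 0.12, adjusted p = 1.5e-06) and 3.62 (SE 0.32, adjusted p = 4.6e-05) on the log2 scale. The free RNA level of Slit3 was 172, 202 and 58.3 CPM in the 3 libraries. In the GFP-low libraries this was at or above its level in Adamdec1-fibroblast-like cells. That of Slit2 in the GFP-low libraries was 1.28 and 2.58 CPM, above its 0.540 and 0.258 CPM in their Adamdec1-fibroblast-like cells. The part of free RNA in those values was not tested.

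The Slit receptors went the other way. Robo1 had 9.71, 15.3 and 13.5 normalised CPM in Cd81-fibroblast-like cells, against 41.3, 53.9 and 54.5 in Adamdec1-fibroblast-like cells. Robo2 had 50.6, 68.1 and 80.8, against 175, 245 and 187. Both were lower in Cd81-fibroblast-like cells in all 3 libraries without overlap, by a log2 difference of -1.96 for Robo1 (SE 0.11, adjusted p = 3.2e-06) and -1.63 for Robo2 (SE 0.14, adjusted p = 3.1e-05).

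Secreted semaphorins were split between the fibroblast types. Sema3d had 41.1, 69.6 and 44.4 normalised CPM in Cd81-fibroblast-like cells, against 0.868, 2.12 and 1.02 in Adamdec1-fibroblast-like cells, a log2 difference of 5.30 (SE 0.16, adjusted p = 1.6e-07). Sema3f had 0.838, 0.535 and 3.70, against 38.4, 23.4 and 49.6, a log2 difference of -5.11 (SE 0.25, adjusted p = 1.8e-06). These were the largest differences among the members in either direction, and neither gene's groups overlapped. Sema3c, a ligand of both neuropilins, had 299, 334 and 319, against 101, 103 and 123, a log2 difference of 1.54 (SE 0.11). In near-empty droplets of the GFP-low replicates Sema3c had 155.5 and 162.8 CPM and Sema3d 18.3 and 25.8 CPM. Both lay above the Adamdec1-fibroblast-like levels of 110 and 100 CPM for Sema3c and 0.945 and 2.06 CPM for Sema3d. The part of free RNA was not tested.

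Sema3b, with 21.6, 19.4 and 15.5 normalised CPM in Cd81-fibroblast-like cells and 5.58, 7.15 and 7.56 in Adamdec1-fibroblast-like cells, was also higher, by 1.49 (SE 0.18). Sema3e had 3.89, 3.52 and 1.68, against 0, 0 and 0.240, so its fitted log2 difference of 4.53 (SE 0.67) depends on libraries at 0 and was 8.85 without the whole mesenchyme library. Its receptor Plxnd1 was lower in Cd81-fibroblast-like cells, with 18.3, 7.50 and 17.2, against 55.3, 29.0 and 52.7, a log2 difference of -1.72 (SE 0.12).

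Both neuropilins, co-receptors of class 3 semaphorins, were lower in Cd81-fibroblast-like cells, and the class A plexins were mixed: Plxna2 and Plxna4 were lower, and Plxna1 and Plxna3 did not pass. Nrp1 had 161, 121 and 127 normalised CPM there and 251, 218 and 253 in Adamdec1-fibroblast-like cells, a log2 difference of -0.82 (SE 0.10, adjusted p = 0.00040). Nrp2 had 165, 194 and 140, against 301, 444 and 218, a log2 difference of -0.91 (SE 0.12, adjusted p = 0.00060), and did not pass without the library term (adjusted p = 0.061). Plxna4, a plexin partner of the neuropilins, had 2.46, 3.14 and 3.03, against 11.8, 22.0 and 39.2, a log2 difference of -2.76 (SE 0.21). None of Nrp1, Nrp2 and Plxna4 overlapped between the types, and Plxna4 of Adamdec1-fibroblast-like cells spread most between libraries.

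**Figure D4:**
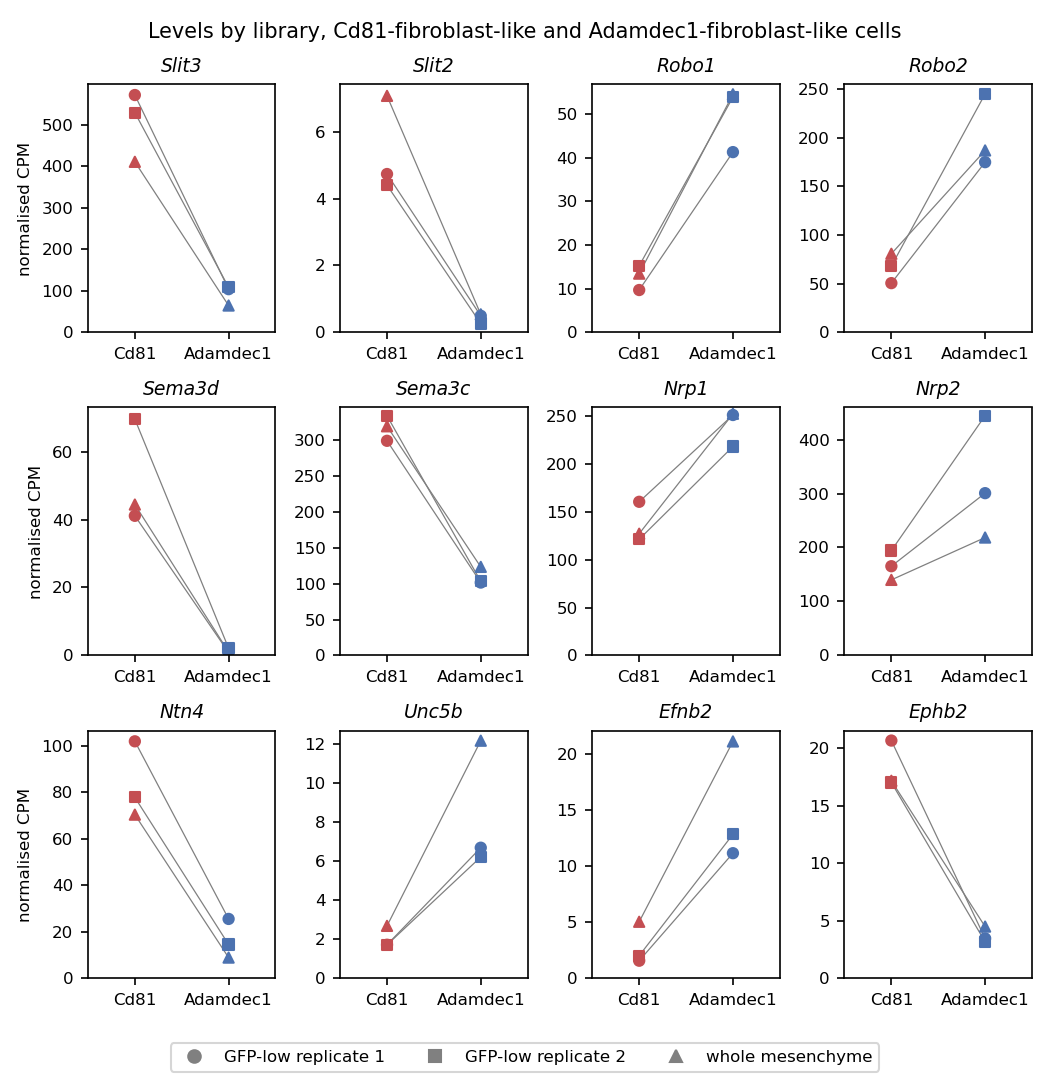
Normalised CPM of 12 members in Cd81-fibroblast-like (left, red) and Adamdec1-fibroblast-like cells (right, blue) of each library, with a line joining the cells of 1 library. Lines fall to the right for Slit3, Slit2, Sema3d, Sema3c, Ntn4 and Ephb2 and climb for Robo1, Robo2, Nrp1, Nrp2, Unc5b and Efnb2 in all 3 libraries.

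Netrins were higher and Unc5 receptors lower in Cd81-fibroblast-like cells. Ntn4 had 102, 77.7 and 70.3 normalised CPM in Cd81-fibroblast-like cells, against 25.5, 14.6 and 8.94 in Adamdec1-fibroblast-like cells, a log2 difference of 2.43 (SE 0.17, adjusted p = 1.2e-05). Ntn1 had 119, 116 and 126, against 71.9, 87.8 and 96.4, a smaller log2 difference of 0.51 (SE 0.10, adjusted p = 0.0059). Free RNA of Ntn4 in the GFP-low replicates was 57.7 and 38.75 CPM, above its 27.8 and 14.2 CPM in Adamdec1-fibroblast-like cells. That of Ntn1 was 63.5 and 81.4 CPM, below its 78.3 and 85.5 CPM in the same cells. The part of free RNA was not tested. Both netrins were higher in every library, but Ntn1 did not pass without GFP-low replicate 1 (adjusted p = 0.088) or without the library term (adjusted p = 0.085). Unc5b had 1.73, 1.72 and 2.69, against 6.70, 6.22 and 12.2, a log2 difference of -1.95 (SE 0.20), and Unc5a had 7.15, 4.17 and 7.40, against 17.9, 15.5 and 16.2, a log2 difference of -1.50 (SE 0.17).

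Ephrins and Eph receptors were mixed. Ephb2 was the receptor with the largest excess in Cd81-fibroblast-like cells, with 20.7, 17.0 and 17.2 normalised CPM, against 3.47, 3.18 and 4.50, a log2 difference of 2.29 (SE 0.17). Efnb2, one of its ligands, had 1.58, 2.03 and 5.05, against 11.2, 12.8 and 21.1, a log2 difference of -2.58 (SE 0.19), so receptor and ligand were higher in opposite types. Efna5, an ephrin-A anchored in the membrane, had 56.4, 62.2 and 58.5, against 19.3, 11.1 and 23.3, a log2 difference of 1.76 (SE 0.19). In both GFP-low replicates the lower type of each of these genes lay below near-empty droplets. Ephb2 had 3.78 and 3.09 CPM there, against 7.05 and 5.17 CPM in the droplets. Efnb2 had 1.59 and 1.765 CPM, against 1.92 and 3.875 CPM, and Efna5 21.05 and 10.8 CPM, against 23.4 and 29.7 CPM. The part of free RNA was not tested.

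The EphA receptors tested were at low levels. Epha4 had 0.0986, 0.535 and 1.01 normalised CPM in Cd81-fibroblast-like cells, against 1.49, 1.99 and 3.84 (log2 difference -2.31, SE 0.45), and Epha5 had 0.345, 1.03 and 1.35, against 3.84, 4.77 and 1.98 (log2 difference -2.39, SE 0.43). Epha1 had 2.17, 3.02 and 1.68, against 1.12, 1.06 and 0.840, a log2 difference of 1.18 (SE 0.32, adjusted p = 0.024) that did not pass without either GFP-low replicate (adjusted p = 0.087 without replicate 1 and 0.24 without replicate 2), with DESeq2 (adjusted p = 0.16) or without the library term (adjusted p = 0.062).

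Of the transmembrane and membrane-anchored semaphorins, Sema6d had 3.25, 5.74 and 4.04 normalised CPM in Cd81-fibroblast-like cells, against 12.6, 20.4 and 16.7 in Adamdec1-fibroblast-like cells, a log2 difference of -1.91 (SE 0.14). Sema7a had 0.148, 0.153 and 1.01, against 0.496, 0.927 and 2.70, with groups that overlapped, a log2 difference of -1.91 (SE 0.52, adjusted p = 0.024), and did not pass without GFP-low replicate 1 or 2 (adjusted p = 0.075 and 0.17), with DESeq2, without the library term, with clusters or with a gate margin of 0.05 (adjusted p = 0.095, 0.11, 0.070 and 0.059). Efna1 (log2 difference -1.06, SE 0.23) was also lower, and did not pass without GFP-low replicate 2 (adjusted p = 0.068).

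Markers of other cell types differed between the fibroblast types as well. Of 15 panels of other types, 9 had a lower summed level in Cd81-fibroblast-like cells of every library, 3 (telocyte, glia and neuron) a higher one, and 3 (mast cells, mesothelium and erythroid cells) were at 0 throughout. Of the blood endothelium set above, Sema3f, Efnb2, Nrp1, Plxna2, Efna1, Epha4 and Sema7a were lower in Cd81-fibroblast-like cells. Sema6b of that set was higher (log2 difference 0.74), and Robo4 and Sema3g were not tested. The summed level of the 7 blood endothelium markers was 8.26, 4.16 and 37.1 CPM in Cd81-fibroblast-like cells and 18.4, 8.51 and 62.6 CPM in Adamdec1-fibroblast-like cells. Emcn and Cldn5 were at 0 in both types of both GFP-low replicates, and Cdh5 in all of these but Adamdec1-fibroblast-like cells of replicate 2.

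The 6 pericyte markers summed to 13.4, 11.5 and 17.9 CPM in Cd81-fibroblast-like cells, against 131, 67.8 and 50.3 CPM, with Higd1b at 0 in all 3 libraries of the first and in GFP-low replicate 1 of the second. The 6 smooth muscle markers, all detected, summed to 46.1, 32.7 and 82.4 CPM, against 172, 138 and 215 CPM. The 6 B or plasma cell markers summed to 46.6, 30.2 and 45.4 CPM, against 279, 186 and 82.6 CPM, and Ms4a1 was at 0, partly with Cd79b, in Cd81-fibroblast-like cells of whole mesenchyme and in Adamdec1-fibroblast-like cells of both GFP-low replicates. The 3 markers of interstitial cells of Cajal summed to 12.1, 13.1 and 13.6 CPM, against 44.5, 60.6 and 57.2 CPM. Kit was at 0 in Cd81-fibroblast-like cells of GFP-low replicate 1 and whole mesenchyme, and Ano1 in those of GFP-low replicate 2 and in Adamdec1-fibroblast-like cells of GFP-low replicate 1.

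Of the glia set, Sema3b, Ephb2 and Sema3e were higher in Cd81-fibroblast-like cells, Sema6d was lower and Plxnb3 was not tested. The 6 glia markers summed to 1.74, 1.63 and 3.97 CPM in Cd81-fibroblast-like cells, against 0.810, 1.42 and 2.60 CPM in Adamdec1-fibroblast-like cells. Sox10 was at 0 in every sum but Adamdec1-fibroblast-like cells of whole mesenchyme. The part of all these cell types in the differences of the members was not tested.

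Further members that passed were Sema3a (log2 difference 0.98) and Sema6b (0.74), which were higher in Cd81-fibroblast-like cells, and Sema4b (-0.67), Efnb1 (-0.85), Plxna2 (-0.87), Sema6a (-1.0), Plxnc1 (-1.02), Ephb6 (-1.30) and Sema5a (-1.42), which were lower. All went the same way in every library, and Efnb1 and Plxna2 overlapped between the types. Without the library term Sema3a, Sema6b, Sema4b, Efnb1, Plxna2 and Ephb6 did not pass (adjusted p = 0.088, 0.16, 0.27, 0.22, 0.11 and 0.10 in that order). With DESeq2 Sema3a, Sema6b and Sema4b did not (adjusted p = 0.062, 0.086 and 0.097). Without GFP-low replicate 1 Sema6b, Sema4b and Plxna2 did not (adjusted p = 0.15, 0.11 and 0.0504), and without GFP-low replicate 2 Sema3a and Sema6b did not (adjusted p = 0.21 and 0.064). The 11 members that did not pass were Plxna1, Plxna3, Plxnb2, Sema4a, Sema4c, Sema6c, Efna2, Efna4, Ephb3, Ephb4 and Epha7. Their log2 differences lay between -0.79 (Efna4, adjusted p = 0.052) and 0.31 (Plxna3, adjusted p = 0.22). Plxna1 passed without GFP-low replicate 1 (adjusted p = 0.025) and Sema4c without whole mesenchyme (adjusted p = 0.028), and both passed with Efna4 when no low-count filter was used (adjusted p = 0.010, 0.047 and 0.035 for Plxna1, Sema4c and Efna4). Plxnb2, a plexin of class 4 semaphorins, had 89.9, 54.6 and 73.7 normalised CPM in Cd81-fibroblast-like cells, against 79.6, 65.1 and 69.5, with groups that overlapped and a log2 difference of 0.00 (SE 0.11).

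Among 45 other genes of these pathways, 39 were tested, of which 13 were higher and 5 lower in Cd81-fibroblast-like cells, with a median log2 difference of 0.15. Flrt2 and Flrt3, membrane proteins that bind Unc5 receptors, were the 2 largest increases: Flrt2 had 142, 287 and 137 normalised CPM, against 7.44, 18.3 and 7.20 (log2 difference 4.15, SE 0.12), and Flrt3 had 38.5, 46.7 and 26.9, against 7.32, 6.09 and 3.24 (log2 difference 2.77, SE 0.15). The largest decreases were Draxin, a secreted antagonist of netrin signalling, at -3.89 (SE 0.53), the adaptor Nck2 at -2.51 (SE 0.18) and the kinase Pak1 at -1.11 (SE 0.15). Neo1, which encodes the netrin receptor neogenin, was lower by a log2 difference of -0.53 (SE 0.13), and Dcc did not pass the filter on low counts.

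Cd81-fibroblast-like cells were split further into Pi16-fibroblast-like cells (986 and 720 cells in the GFP-low replicates and 114 in whole mesenchyme), gated by Pi16, Dpp4, Cd55, Ly6c1 and Ackr3, and Grem1-fibroblast-like cells (1690, 2818 and 312), gated by Grem1, Ackr4, Chrdl1 and Fst. Of the 4 Grem1 panel markers, 3 were elevated in the gated cells. The median Grem1-fibroblast-like cell held 2 of them, and 14.4% of these cells held 3 or more. Pi16-fibroblast-like cells had more Sema3c, Sema3e, Efnb2, Plxna1, Robo1 and Ntn4 transcripts than Grem1-fibroblast-like cells, and fewer Robo2, Nrp2, Slit2, Epha7, Sema5a and Plxnc1 transcripts. Of 42 members tested, 6 were higher, 14 lower and 22 did not pass (edgeR, n = 3 libraries each, adjusted over 11200 genes), and over all genes 20.8% passed, 9.95% higher and 10.8% lower. The median log2 difference of the members was -0.41, beside 0.00 over all genes, and 25 members did not enter the test. Counts depended on the fit: without the library term 2 members were higher and 2 lower, with DESeq2 8 were lower, and without GFP-low replicate 2 4 were higher and 9 lower. Sema3c, Sema3e, Robo2 and Nrp2 passed under every alternative, and the other 16 members did not pass without the library term.

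The summed levels of marker panels differed here too. The 6 smooth muscle markers summed to 66.0, 48.2 and 118 CPM in Pi16-fibroblast-like cells of GFP-low replicate 1, GFP-low replicate 2 and whole mesenchyme, against 36.5, 28.1 and 78.4 CPM in Grem1-fibroblast-like cells. Myh11 was at 0 in Pi16-fibroblast-like cells of GFP-low replicate 2, Cnn1 in Grem1-fibroblast-like cells of GFP-low replicate 2 and whole mesenchyme, and Actg2 in Grem1-fibroblast-like cells of GFP-low replicate 2. The 4 neuron markers summed to 2.69, 2.0 and 4.26 CPM, against 0.190, 0.0501 and 0 CPM, with Elavl4 and Snap25 at 0 throughout. The 7 blood endothelium markers summed to 7.91, 3.45 and 63.9 CPM, against 8.38, 4.36 and 29.5 CPM, with Cdh5, Emcn and Cldn5 at 0 in both subtypes of the GFP-low replicates. Of 15 panels of other types 7 were lower in Pi16-fibroblast-like cells of every library, 2 (smooth muscle and neuron) were higher, 3 went different ways and 3 were at 0, and their part in the results was not tested.

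**Figure D5:**
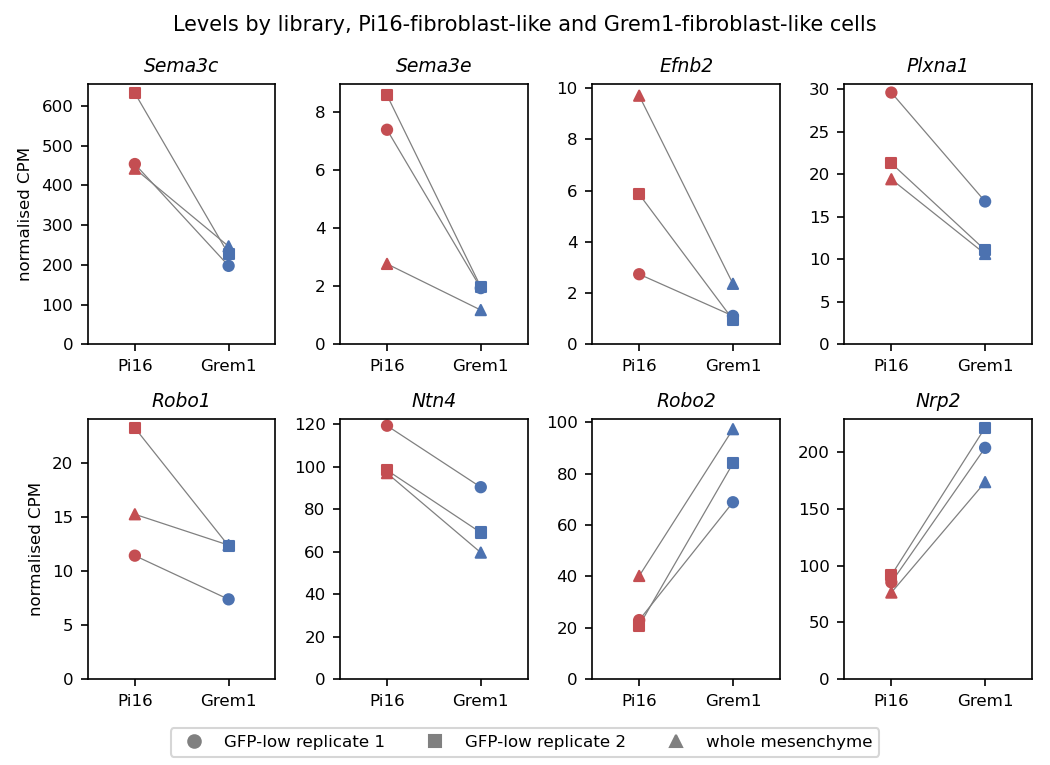
Normalised CPM of 8 members in Pi16-fibroblast-like (left, red) and Grem1-fibroblast-like cells (right, blue) of each library, with a line joining the cells of 1 library. The first 6 genes fall to the right in every library and Robo2 and Nrp2 climb in every library; Robo1 values of the types overlap.

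Sema3c had 454, 632 and 442 normalised CPM in Pi16-fibroblast-like cells of GFP-low replicate 1, GFP-low replicate 2 and whole mesenchyme, against 197, 227 and 247 in Grem1-fibroblast-like cells, a log2 difference of 1.22 (SE 0.09, adjusted p = 9.9e-08). Its receptor Nrp2 had 85.2, 91.5 and 76.2, against 204, 221 and 173, a log2 difference of -1.25 (SE 0.07, adjusted p = 4.9e-09). Ligand and receptor were high in opposite subtypes, without overlap. Nrp1 had 130, 82.4 and 105, against 166, 130 and 132, a smaller log2 difference of -0.47 (SE 0.08).

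The 2 Robos, lower together in Cd81-fibroblast-like cells, differed from each other within them. Robo2 had 23.0, 20.9 and 40.2 normalised CPM in Pi16-fibroblast-like cells, against 68.9, 84.0 and 97.3 in Grem1-fibroblast-like cells, a log2 difference of -1.73 (SE 0.11, adjusted p = 1.1e-08). In near-empty droplets of the GFP-low replicates Robo2 had 26.9 and 36.2 CPM, above its 24.1 and 19.4 CPM in Pi16-fibroblast-like cells. The part of free RNA was not tested. Robo1 had 11.4, 23.2 and 15.2, against 7.38, 12.3 and 12.4, a log2 difference of 0.77 (SE 0.15, adjusted p = 0.0012) with groups that overlapped, and did not pass without GFP-low replicate 2 (adjusted p = 0.18) or with DESeq2 (adjusted p = 0.11). Slit2 had 1.45, 0.781 and 6.93, against 6.18, 5.65 and 8.26, a log2 difference of -2.0 (SE 0.36) with groups that overlapped. Its values in Pi16-fibroblast-like cells of the GFP-low replicates rest on 9 and 4 UMIs. Slit3, with 543, 449 and 353 against 553, 526 and 424, did not pass (log2 difference -0.16, SE 0.07, adjusted p = 0.13).

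Sema3e and Efnb2 were low in both subtypes and higher in Pi16-fibroblast-like cells. Sema3e had 7.40, 8.59 and 2.77 normalised CPM there, against 1.94, 1.98 and 1.18 (log2 difference 2.0, SE 0.26). Efnb2 had 2.73, 5.86 and 9.70, against 1.11, 0.961 and 2.36 (log2 difference 2.07, SE 0.36), and did not pass without GFP-low replicate 2 (adjusted p = 0.062). Plxna1, a plexin partner of neuropilins, had 29.6, 21.3 and 19.4, against 16.8, 11.1 and 10.6 (log2 difference 0.87, SE 0.12), and Ntn4 had 119, 98.4 and 97.0, against 90.4, 69.0 and 59.6 (log2 difference 0.48, SE 0.07).

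Other members were lower in Pi16-fibroblast-like cells. Plxnc1, the receptor of Sema7a, had 2.25, 1.37 and 4.16 normalised CPM, against 7.47, 5.26 and 10.0 (log2 difference -1.74, SE 0.28). Epha7 had 1.13, 2.73 and 2.77, against 6.18, 6.67 and 6.49 (log2 difference -1.72, SE 0.31), Sema5a had 6.11, 9.76 and 16.6, against 16.0, 31.9 and 22.4 (log2 difference -1.46, SE 0.17), and Ephb3 had 19.3, 12.7 and 15.2, against 35.3, 26.3 and 25.4 (log2 difference -0.93, SE 0.12). All 4 were lower in every library, and of them Sema5a overlapped between the subtypes.

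Sema3a, Sema6a and Sema6b were also lower in Pi16-fibroblast-like cells, by log2 differences of -0.87, -0.79 and -0.59 (SE 0.23, 0.15 and 0.19). With DESeq2 none of the 3 passed (adjusted p = 0.23, 0.067 and 0.44), and Sema3a did not pass without GFP-low replicate 1 (adjusted p = 0.10) or without GFP-low replicate 2 (adjusted p = 0.094). Sema6b did not pass without GFP-low replicate 2 (adjusted p = 0.49), without the 6% of cells with most UMIs (adjusted p = 0.15) or with a gate margin of 0.05 (adjusted p = 0.054), and its log2 difference was -0.92 without GFP-low replicate 1. Ephb2 (-0.54) and Plxnb2 (-0.33) passed as well, though neither with DESeq2 (adjusted p = 0.22 and 0.13) or without GFP-low replicate 2 (adjusted p = 0.14 and 0.075), nor Ephb2 without GFP-low replicate 1 (adjusted p = 0.055) or without the 6% of cells with most UMIs (adjusted p = 0.053), and Plxnd1 (-1.02) passed although it was higher in Pi16-fibroblast-like cells of whole mesenchyme, and did not pass with DESeq2 (adjusted p = 0.13) or without GFP-low replicate 2 (adjusted p = 0.10). Of 37 other pathway genes tested, 14 were higher and 3 lower, with a median log2 difference of 0.12. The 3 largest increases were Srgap1, a GTPase-activating protein that binds Robo receptors, by 0.95 (SE 0.11), Limk1, a kinase of cofilin, by 0.89 (SE 0.12) and Vav2, an exchange factor downstream of Eph receptors, by 0.80 (SE 0.15). The decreases were Pak1 at -0.84 (SE 0.23), Rasa1 at -0.44 (SE 0.08) and Rgmb at -0.42 (SE 0.07).

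The sorted groups were compared within a type by value only, since whole mesenchyme is 1 library. A difference was counted at 2-fold outside both GFP-low replicates, with at least 10 UMIs in each library and CPM scaled to the total without the panel genes. In Cd81-fibroblast-like cells 2 of 35 members were lower in GFP-low cells, beside 1.21% of all genes, and 0 were higher, beside 0.346%. In Adamdec1-fibroblast-like cells 0 of 41 members were lower, beside 1.13%, and 1 was higher, beside 1.02%.

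The 2 lower members were Efnb2 and Sema3f. Efnb2 had 1.62 and 1.79 CPM in Cd81-fibroblast-like cells of the GFP-low replicates, against 5.04 CPM in those of whole mesenchyme, and Sema3f had 0.860 and 0.472 CPM, against 3.70 CPM on 11 UMIs. In near-empty droplets Efnb2 had 1.92 and 3.88 CPM in the GFP-low replicates and 49.5 CPM in whole mesenchyme, and Sema3f 2.89, 0 and 70.7 CPM, and the part of free RNA in these differences was not tested. Epha5 had 4.25 and 4.72 CPM in Adamdec1-fibroblast-like cells of the GFP-low replicates, against 1.99 CPM in those of whole mesenchyme.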

How the data were processed

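The deposited tables hold raw UMI counts per gene and barcode. The submitters' processing notes name Cell Ranger 3.0.2 and mm10. Each of the 3 tables held 31053 genes and 6794880 barcodes, before any cell calling. Cells had at least 1000 UMIs, 500 genes and at most 20% mitochondrial UMIs. No doublet caller was run: cells with a margin under 0.15 between their 2 best panels stayed without a type, and an alternative left out the 6% of cells with most UMIs. A panel score was the mean ln(1 + UMIs per 10000) over the panel, divided by the mean of the 50 highest cells, with a minimum of 0.3 (within a type 0.2 and a margin of 0.1). Free RNA was measured in barcodes of 5 to 100 UMIs.

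UMIs were summed per library and type (at least 20 cells) and tested by edgeR 4.0.16 (R 4.3.3) with its quasi-likelihood test, TMM factors, filterByExpr, a library term and Benjamini-Hochberg adjustment (threshold 0.05), leaving out 112 panel genes. Types of 1 library are paired by that library, since their cells were prepared together. The common biological coefficient of variation was 0.106 between the Cd81 and Adamdec1 types and 0.0579 between the Pi16 and Grem1 types. On simulated counts with known changes the test recovered 84.1% of 2-fold and 97.8% of 4-fold changes in the first (12357 genes) and 93.5% and 100% in the second (11200 genes). The counts of Cd81-fibroblast-like cells differed between the GFP-low replicates by more than sampling noise (a chi-square of 184.8 per degree of freedom over 12897 genes). Alternatives were clusters formed without the members (2000 variable genes, scanpy 1.11.5, leidenalg 0.10.2), gate margins of 0.05 and 0.25, at least 2000 UMIs, DESeq2 1.42.0, its size factors, no low-count filter, no library term and leaving out each library. Of the 25 clusters, 16 had at least 90% of their cells from 1 library, so the clusters largely followed the libraries.

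Named genes were up to 10 per direction that passed and went the same way in every library, members standing apart in each type (up to 8), up to 3 pathway genes per direction, and partners of a named member. A gene that this rule names is not reported here. Neo1, Dcc, Plxnb2 and the values of members outside their highest type were added after values were seen, as was the 2-fold comparison between sorted groups. The members and lists were chosen with earlier results of these data known. Where a gene overlaps another, 3′ UMIs may be divided between them.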

Additional observations from a re-analysis of the deposited data

Results flagged for a closer look

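For 7 differences between fibroblast types, the whole mesenchyme library went one way and both GFP-low replicates the other, and the difference between the groups was not tested. Between Cd81- and Adamdec1-fibroblast-like cells, in normalised CPM, Sema6c had 10.1 and 7.11 in Cd81-fibroblast-like cells of the GFP-low replicates, against 6.70 and 7.02 in their Adamdec1-fibroblast-like cells, and in whole mesenchyme 5.38 against 6.72. Epha7 had 4.24 and 5.43 against 4.96 and 6.62 in the GFP-low replicates, and 7.74 against 4.02 in whole mesenchyme.

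Between Pi16- and Grem1-fibroblast-like cells, Sema4c had 47.8 and 52.3 normalised CPM in Pi16-fibroblast-like cells of the GFP-low replicates, against 40.0 and 42.3 in Grem1-fibroblast-like cells, and 51.3 against 53.7 in whole mesenchyme. Efna4 had 1.61 and 1.17 against 2.58 and 1.53, and 2.77 against 2.36 in whole mesenchyme. Sema6c had 8.36 and 4.88 against 10.5 and 7.40, and 5.54 against 4.72. Epha1 had 3.38 and 3.51 against 1.01 and 2.77, and 1.39 against 2.36. Plxnd1, the member of the 7 whose overall difference passed the test (edgeR, adjusted p = 0.0084), had 11.6 and 1.56 against 22.0 and 8.93, and 23.6 against 17.1 in whole mesenchyme, where the values rest on 17 and 29 UMIs. Pi16-fibroblast-like cells of whole mesenchyme held 1, 2 and 4 UMIs of Epha1, Efna4 and Sema6c.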

How the results depend on the processing

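No member that passed the test changed direction under any alternative run. Of those that did not pass, Efna2, Epha7, Ephb4, Plxnb2 and Sema6c between the Cd81 and Adamdec1 types and Ntn1, Sema3d and Sema4a between the Pi16 and Grem1 types changed direction under at least 1. Between Cd81- and Adamdec1-fibroblast-like cells the counts of 13 higher and 22 lower members stayed within 1.5 times, at 9 to 15 and 16 to 25, and at 10 to 15 and 20 to 22 when 1 library was left out. Between Pi16- and Grem1-fibroblast-like cells 8 members were lower with DESeq2, and with 1 library left out 4 to 8 were higher and 9 to 14 lower; 9 other pathway genes were higher with DESeq2, and with 1 library left out 10 to 15 were higher and 2 to 5 lower (11 to 14 and 4 to 6 between the Cd81 and Adamdec1 types). The types are paired by library. Without the replicate block, the Pi16 and Grem1 comparison kept 2 members higher and 2 lower and 1 pathway gene higher and 0 lower, and the Cd81 and Adamdec1 comparison 9 and 16 members and 9 and 3 pathway genes. Without the block 10 of 35 members that passed no longer did in the Cd81 and Adamdec1 comparison (Efnb1, Epha1, Ephb6, Nrp2, Ntn1, Plxna2, Sema3a, Sema4b, Sema6b and Sema7a), and 16 of 20 in the other. Between 32 and 35 members stood apart in whole mesenchyme under the alternatives. Sema7a fell under the low-count filter, and has no value, with a gate margin of 0.25, without the 6% of cells with most UMIs and without the whole mesenchyme library. The causes were not tested.

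Intervals cover counting error only; low UMI counts, above all in the 32 venous-like, 48 lymphatic endothelium-like and 51 glia-like cells, limit what differences can be seen. Type names rest on panels of 3 to 7 markers, the sorts differ between groups, and telocyte, endothelial, glial and mural levels come from 1 library.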
